A study of Mus musculus with 12 samples.

Results

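The Gimap genes encode GTPases of the immunity-associated protein family, small GTP-binding proteins that sit mainly on internal membranes of lymphocytes. The members were the 8 genes Gimap1, Gimap3, Gimap4, Gimap5, Gimap6, Gimap7, Gimap8 and Gimap9, taken by symbol from 25655 genes listed. All 8 were among the 11417 genes that passed the filter on low values. The rule went by symbol, but the family was chosen by its CPM in these same 12 libraries, with the group comparisons below already known, so their differences between groups are given as a description and carry no p-value. Family members are best known for setting how long T cells live. Gimap5 loss leaves rats and mice short of T cells, and other members have been linked to the BCL2 family of death regulators and to autophagy. Ezh2 is the Polycomb enzyme that writes H3K27me3, a histone mark of silent genes.

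Messenger RNA was measured in splenic CD8 T cells of female C57BL/6 mice in 4 groups of 3 libraries. The groups were Ezh2-deficient cells at day 3 (KO day 3), wild-type cells at day 3 (WT day 3), Ezh2-deficient cells at day 5 (KO day 5) and wild-type cells at day 5 (WT day 5). In all 4 groups, naive cells low in CD44 and high in CD62L had been stimulated with immobilised antibody to TCR-β and antibody to CD28 while IL-2 was present, and were then held in IL-2 alone. Per the labels' protocols the stimulation lasted 2 days and the IL-2 phase 1 or 5 days, whose sums are 3 and 7 days, so "day 5" follows the sample titles and not the protocol. The deleted part of Ezh2, the means of its deletion and the age of the mice were not given in the sources used here. The labels do not say whether the 3 libraries of a group came from separate mice or cultures, so the errors describe only how these libraries scatter, and that scatter may be technical.

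The libraries were made with a 3′ tag method and held 1545391 to 2011247 reads assigned to genes, so 1 read was worth 0.497 to 0.647 CPM (reads per 1000000 reads of the library). Each member had between 55 and 1080 reads in every library. KO day 5 replicate 2 stood apart from its partners, since the chi-square of the read counts divided by its degrees of freedom was 5.21 and 5.38, against 1.34 to 2.45 for every other replicate pair. Ezh2 averaged 341 ± 33.8 CPM in KO day 3 and 380 ± 26.7 CPM in WT day 3, and 201 ± 71.2 CPM in KO day 5 and 314 ± 6.72 CPM in WT day 5. A 3′ tag outside the deleted part checks nothing, so these Ezh2 values do not test the genotype labels. All 9 CD8 T cell markers were tested, and of them Cd8a averaged 307 CPM in KO day 5 and 228 CPM in WT day 5. At day 3 Cd8a went the other way, with 242 CPM in KO and 323 CPM in WT. Of the B cell markers, Ms4a1 and Blk had no read in any library.

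In KO cells at day 5, all 8 Gimap genes stood at their highest, 1.39 to 2.84 times their WT day 5 level. At day 3 the KO to WT ratios ran from 0.817 to 1.39, so the top of that range, Gimap8, met the bottom of the day 5 range. Summed over the 8 members, the level was 1771, 1862 and 1591 CPM in the KO day 5 libraries, against 990.3, 903 and 975 CPM in the WT day 5 libraries. At day 3 the sums were 797, 818 and 889 CPM in KO and 798, 792 and 802 CPM in WT. The KO day 5 sums lay above every other library, and the day 3 genotypes overlapped. The summed level in KO day 5 was thus 1.82 times that of WT day 5, while in KO day 3 it was 1.05 times that of WT day 3. These are bulk samples, in which more cells of a type and more RNA per cell cannot be told apart.

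**Figure D1:**
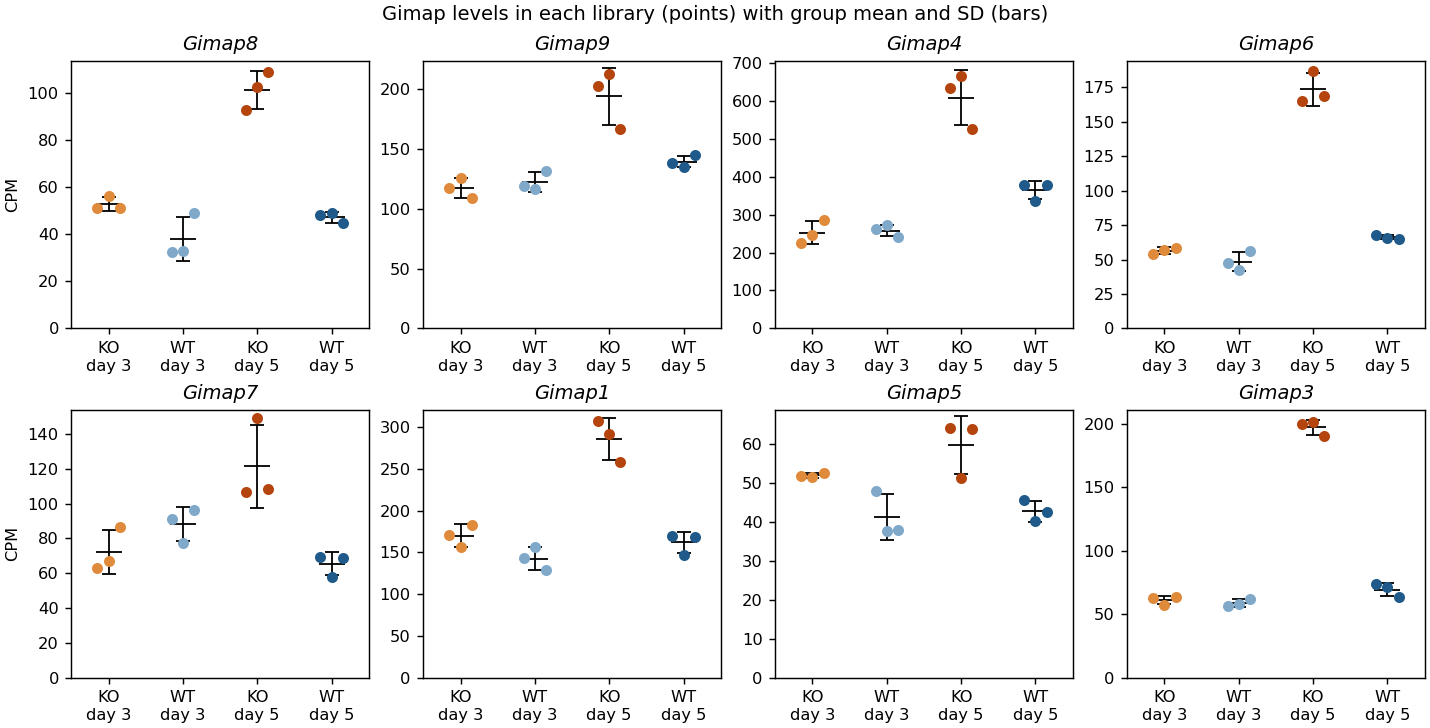
CPM of each Gimap gene in the 12 libraries (points), with the group mean and SD (bars, n = 3), genes in their order on chromosome 6. In every panel the KO day 5 points reach highest, from 51.2 to 64.1 CPM for Gimap5 up to 526 to 666 CPM for Gimap4.

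The fit across all genes called 8 of 8 members higher in KO day 5 than in WT day 5, where 16.5% of all tested genes were called higher and 22.9% lower in the same comparison. With median-of-ratios scaling the split over all genes was 2302 higher and 2098 lower, in place of 1885 and 2616 as deposited. The libraries of the groups did not overlap for 8 of 8 members, which was so for 21% of all genes in the higher direction. At day 3, 1 of 8 members was called higher in KO, beside 11.2% of all genes called higher and 7.23% called lower. At the same day, 3 members had all KO libraries above all WT libraries, beside 19% of all genes. The median log2 difference of the members, KO minus WT on log2(CPM + 1), was 0.84 at day 5, where the median of all genes was −0.08. At day 3 it was 0.14, beside −0.01 over all genes. Since the members were chosen with these comparisons known, nothing is read from the counts.

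Gimap3 and Gimap6 showed the largest genotype differences at day 5, and they are the 2 members read from the minus strand. Gimap3 binds BCL2 family proteins and is a functional gene in mice. It had 199.9, 202 and 190.2 CPM in the KO day 5 libraries, against 73.6, 71.3 and 63.3 CPM in the WT day 5 libraries. The lowest KO library held more than 2 times the highest WT library. At day 3 Gimap3 had 62.6, 57.3 and 63.4 CPM in KO and 56.3, 58.2 and 61.8 CPM in WT, and the genotypes overlapped. Its log2 difference was 1.50 ± 0.11 (SE) at day 5 and 0.06 ± 0.11 at day 3.

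Gimap6, which binds the autophagy protein Gabarapl2, followed the same course. It stood at 165, 187 and 169 CPM in KO day 5 and at 67.8, 65.8 and 65.0 CPM in WT day 5, with no overlap. Its day 3 libraries had 53.7, 57.3 and 58.5 CPM in KO and 47.4, 42.1 and 56.1 CPM in WT, where 1 WT library lay within the KO range. The log2 difference between genotypes was 1.38 ± 0.12 at day 5 and 0.22 ± 0.12 at day 3.

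Gimap8, a member with several GTPase domains in 1 protein, was the only one called higher in KO at both days. Its KO day 5 libraries held 92.5, 102 and 109 CPM, against 47.9, 49.0 and 44.6 CPM in WT day 5, a ratio of 2.14. At day 3 it had 51.2, 56.2 and 50.9 CPM in KO and 32.6, 32.7 and 48.8 CPM in WT. The third WT day 3 library lay close to the KO libraries and the other two well below. The day 3 log2 difference was 0.49 ± 0.15, and the call was lost without replicate 1 or 2 of WT day 3, without replicate 2 of KO day 3, without the trend in the moderation and with DESeq2.

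Gimap1, needed for the survival of mature T and B cells in mice, had 307, 292 and 258 CPM in KO day 5 and 170.0, 147 and 169 CPM in WT day 5. The day 3 libraries held 171, 156 and 183 CPM in KO and 143, 156 and 129 CPM in WT. All KO libraries lay above all WT libraries at both days, at day 3 by a narrow margin. The log2 difference was 0.81 ± 0.10 at day 5 and 0.25 ± 0.10 at day 3, and the day 3 value was called only when KO day 5 replicate 2 was left out of the fit or when reads of the read-through gene Gm28053 were added to it.

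Gimap4, which has been linked to the timing of T cell death, took the most reads of the family. It stood at 633, 666 and 526 CPM in KO day 5, against 377, 337 and 377 CPM in WT day 5. Its values at day 3 were 226, 246 and 285 CPM in KO and 261, 271 and 241 CPM in WT. The day 5 groups were apart and the day 3 groups overlapped, with log2 differences of 0.73 ± 0.10 and −0.04 ± 0.10.

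Gimap7, whose human protein speeds GTP hydrolysis by another family member, was the member with the most varied course. In KO day 5 it had 107, 149 and 109 CPM, with replicate 2 well above the other two, and in WT day 5 it had 69.5, 58.0 and 68.9 CPM. In KO day 3 it had 63.1, 67.1 and 86.4 CPM and in WT day 3 it had 91.2, 77.5 and 96.4 CPM. The KO libraries were higher at day 5 without overlap, while at day 3 the KO mean was the lower one and the groups overlapped. The log2 difference was 0.87 ± 0.14 at day 5 and −0.30 ± 0.14 at day 3. Without KO day 5 replicate 2 the day 5 value was 0.71.

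Gimap9 and Gimap5 differed least at day 5. Gimap9 had 203, 213 and 167 CPM in KO day 5 and 138, 135 and 145 CPM in WT day 5, so that its lowest KO library was close to the highest WT library. At day 3 it had 118, 126 and 109 CPM in KO and 119, 116 and 132 CPM in WT. The groups overlapped at day 3, and the log2 differences were 0.47 ± 0.10 at day 5 and −0.05 ± 0.10 at day 3.

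Gimap5 is the lysosomal member whose loss causes lymphopenia, and it restrains the kinase GSK3β in activated T cells. It had 64.1, 51.2 and 63.8 CPM in KO day 5 and 45.6, 40.1 and 42.4 CPM in WT day 5. At day 3 it had 51.7, 51.4 and 52.5 CPM in KO and 48.0, 37.7 and 38.0 CPM in WT. The KO libraries lay above the WT libraries at both days, and the size of the difference was alike, with log2 differences of 0.47 ± 0.14 at day 5 and 0.33 ± 0.14 at day 3. Replicate 2 was the lowest of the KO day 5 libraries, and without it the day 5 value was 0.57.

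**Figure D2:**
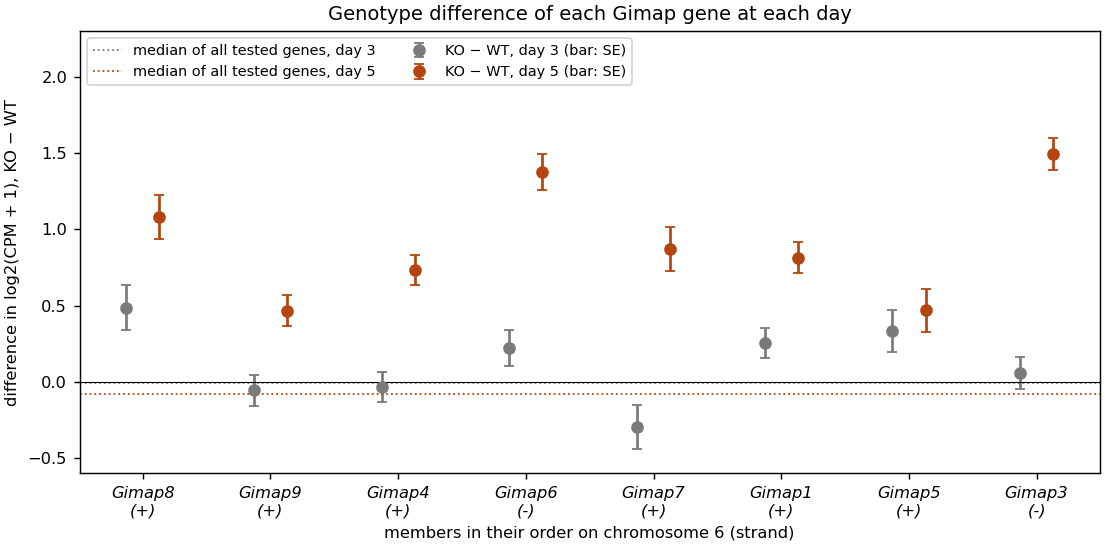
Difference in log2(CPM + 1), KO minus WT, of each Gimap gene at day 3 (grey) and day 5 (red), with the SE of the fit as bars, in the order of the genes on chromosome 6 and with their strand. The dotted lines are the medians of all tested genes, −0.01 at day 3 and −0.08 at day 5, and the day 5 points run from 0.47 to 1.50.

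Gm28053 (chromosome 6, 48718607 to 48752644, GRCm38) is an annotated read-through gene that starts beside Gimap7, passes over Gimap1 and ends within the span of Gimap5. Gm28053 had 85.4, 69.1 and 86.5 CPM in KO day 5 and 42.7, 30.1 and 35.6 CPM in WT day 5, with no overlap. Its log2 difference was 1.14 ± 0.17 at day 5 (limma adjusted p = 1.31e-05) and 0.43 ± 0.17 at day 3 (limma adjusted p = 0.0821). How the authors divided reads between overlapping genes was not given in the sources used here. With Gm28053 added to Gimap5, a choice made after the data were seen, the sum averaged 140.0 ± 17.1 CPM in KO day 5 and 78.8 ± 9.03 CPM in WT day 5, and the log2 difference was 0.82 in place of 0.47. With Gm28053 added to Gimap1 instead, also chosen after the data were seen, the sum averaged 366 ± 24.6 CPM in KO day 5 and 198 ± 18.6 CPM in WT day 5, and the log2 difference was 0.88 in place of 0.81. In the last 500 bases of annotated transcripts, where 3′ tags fall, Gm28053 shared 72 runs of 50 bases with Gimap1 (8.04% of its runs) and 0 with Gimap5 or any of the other members. The furthest annotated end of Gm28053 is 48752644 and that of Gimap5 is 48754210, so the windows compared end at different places. The 0 for Gimap5 therefore does not show that tags of Gm28053 and Gimap5 can be told apart. Of the 28 pairs of members, 0 shared such a run. An antisense transcript, Gimap1os, overlaps Gimap1 in the annotation and is not analysed here, and whether counting used strand was not given in the sources used here.

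Across time, the summed Gimap level in KO day 5 was 2.09 times that in KO day 3, and in WT day 5 it was 1.20 times that in WT day 3. In KO, 7 of 8 members were called higher at day 5, beside 15.4% of all genes called higher and 19.7% called lower. Gimap5 was called only with Gm28053 added to it. Over all genes 1759 were higher and 2247 lower as deposited, and 1992 and 2026 with median-of-ratios scaling. The day 5 to day 3 ratio in KO ran from 1.15 for Gimap5 to 3.23 for Gimap3, with 2.41 for Gimap4 and 3.07 for Gimap6. In WT, 2 of 8 members, Gimap4 and Gimap6, were called higher at day 5, beside 7.17% of all genes, where 819 genes were higher and 430 lower as deposited and 678 and 543 with median-of-ratios scaling. The WT day 5 to day 3 ratio was 1.41 for Gimap4 and 1.36 for Gimap6, and the Gimap6 call was lost without replicate 1 or 2 of WT day 3, without replicate 1 of WT day 5, without the trend in the moderation and with DESeq2. Gimap7 went the other way in WT, with all 3 day 5 libraries below all 3 day 3 libraries, as in 13.1% of all genes. Its log2 difference was −0.43 ± 0.14 and was not called, beside 3.77% of all genes called lower. Gimap7 was called lower with median-of-ratios scaling, with a robust prior, and without KO day 3 replicate 3 or KO day 5 replicate 2.

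The genotype by day interaction is the KO minus WT difference at day 5 less that at day 3. It was called higher for 6 of 8 members, beside 4.01% of all genes called higher and 8.85% called lower, where 458 genes were higher and 1010 lower as deposited and 619 and 745 with median-of-ratios scaling. It was 1.44 ± 0.15 for Gimap3, 1.17 ± 0.20 for Gimap7 and 1.15 ± 0.17 for Gimap6. It was 0.77 ± 0.14 for Gimap4, 0.56 ± 0.14 for Gimap1 and 0.52 ± 0.14 for Gimap9. Gimap8, at 0.60 ± 0.21, and Gimap5, at 0.13 ± 0.20, were not called. The Gimap9 call was lost without WT day 3 replicate 3 or WT day 5 replicate 2, and the Gimap1 and Gimap9 calls were lost without the trend in the moderation. Gimap8 was called with a pseudocount of 5, with median-of-ratios scaling, with quantile normalization, with edgeR, with DESeq2, and without replicate 1 or 2 of WT day 3.

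The order of the 4 groups differed below the top. KO day 5 came first for all 8 members and was apart from the second group for 7 of them; for Gimap5 its libraries overlapped with KO day 3. WT day 5 came second for Gimap3, Gimap4, Gimap6 and Gimap9, and KO day 3 came second for Gimap1, Gimap5 and Gimap8. For Gimap7, WT day 3 came second and WT day 5 last. The 2 lowest groups overlapped for every member.

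The make-up of the family shifted with the day 5 genotype difference. Gimap3 tags were 11.4 ± 0.57% of the family's tags in KO day 5 and 7.27 ± 0.72% in WT day 5, and Gimap6 tags were 9.98 ± 0.64% in KO day 5 and 6.93 ± 0.32% in WT day 5. Gimap4 tags were 34.9 ± 1.54% in KO day 5 and 38.0 ± 0.72% in WT day 5. Gimap9 tags were 11.1 ± 0.55% in KO day 5 and 14.6 ± 0.54% in WT day 5. Gimap5 tags were 3.46 ± 0.65% in KO day 5 and 4.46 ± 0.13% in WT day 5. The KO day 5 and WT day 5 ranges did not overlap for these 5 members. These are shares of 3′ tags, and tags per molecule may differ between genes.

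Over the 12 libraries the members' log2(CPM + 1) values moved together to differing degrees, given here as a description of libraries that share groups and depth. Gimap3 and Gimap6 were closest to each other (Pearson r = 0.98, n = 12 libraries), and Gimap6 and Gimap8 came next (r = 0.95). The lowest value was that of Gimap5 and Gimap7 (r = 0.43), and Gimap5 and Gimap9 had r = 0.48.

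The 8 members lie side by side on mouse chromosome 6 between 48647234 and 48770851 (GRCm38, GENCODE M21), a stretch of 123.618 kb. Each is annotated as protein coding. Gimap8 (ENSMUSG00000064262) spans 48647234 to 48660875, Gimap9 (ENSMUSG00000051124) 48676129 to 48679114 and Gimap4 (ENSMUSG00000054435) 48684549 to 48692060. Gimap6 (ENSMUSG00000047867) spans 48701582 to 48708225, Gimap7 (ENSMUSG00000043931) 48718621 to 48724636 and Gimap1 (ENSMUSG00000090019) 48739054 to 48743795. Gimap5 (ENSMUSG00000043505) spans 48746197 to 48754210 and Gimap3 (ENSMUSG00000039264) 48764464 to 48770851. Gimap6 and Gimap3 are on the minus strand and the other 6 on the plus strand. The largest day 5 differences were therefore not at neighbouring positions, since Gimap7, Gimap1 and Gimap5 lie between these genes.

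The promoters of the members with the largest day 5 differences, Gimap3 and Gimap6, are shown beside those of the members with the smallest, Gimap5 and Gimap9. Each runs 5′ to 3′ on the gene's strand from 250 bases before to 50 bases after the RefSeq start (GRCm38.p6), and capitals mark matches to the motifs searched.
Gimap3 promoter (chr6:48770802-48771101, minus strand): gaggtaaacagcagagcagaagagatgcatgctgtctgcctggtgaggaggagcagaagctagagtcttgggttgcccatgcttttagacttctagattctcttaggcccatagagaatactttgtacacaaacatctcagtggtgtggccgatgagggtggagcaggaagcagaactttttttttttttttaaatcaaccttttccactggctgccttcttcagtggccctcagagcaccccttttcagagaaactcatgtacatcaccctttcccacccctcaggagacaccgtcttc
Gimap6 promoter (chr6:48708195-48708494, minus strand): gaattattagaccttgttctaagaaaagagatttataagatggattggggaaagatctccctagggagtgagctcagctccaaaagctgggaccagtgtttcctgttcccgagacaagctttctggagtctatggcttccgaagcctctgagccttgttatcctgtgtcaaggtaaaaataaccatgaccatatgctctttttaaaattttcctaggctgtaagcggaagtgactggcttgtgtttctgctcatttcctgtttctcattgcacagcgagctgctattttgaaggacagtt
Gimap5 promoter (chr6:48745947-48746246, plus strand): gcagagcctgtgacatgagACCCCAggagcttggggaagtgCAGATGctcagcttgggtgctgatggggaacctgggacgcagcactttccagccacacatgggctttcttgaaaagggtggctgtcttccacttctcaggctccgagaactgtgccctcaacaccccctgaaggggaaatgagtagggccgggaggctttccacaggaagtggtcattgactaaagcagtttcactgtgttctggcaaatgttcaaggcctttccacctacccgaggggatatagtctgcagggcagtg
Gimap9 promoter (chr6:48675885-48676184, plus strand): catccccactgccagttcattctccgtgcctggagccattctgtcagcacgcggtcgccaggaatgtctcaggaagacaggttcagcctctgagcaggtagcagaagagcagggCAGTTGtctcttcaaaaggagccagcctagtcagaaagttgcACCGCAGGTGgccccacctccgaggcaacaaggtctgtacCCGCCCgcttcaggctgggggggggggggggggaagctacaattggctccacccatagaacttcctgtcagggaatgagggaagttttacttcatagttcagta
All 8 members matched the RefSeq promoter table, with 9 starts since Gimap8 has 2. The 5 motifs were searched on both strands. In Gimap9 a RUNX match and an E box match overlap and form 1 run of capitals. Gimap3 and Gimap6 held none of the 5 motifs, as spelled below, in these windows. The RUNX motif, TGNGGT, stood in 6 of 8 members (Gimap1, Gimap4, Gimap5, Gimap7, Gimap8 and Gimap9), and in 45.8% of 32851 promoters in the table. The E box, CAGNTG, stood in 4 members (Gimap5, Gimap7, Gimap8 and Gimap9), and in 51.4% of all promoters. The SP/KLF motif, GGGCGG, stood in Gimap7 and Gimap9, and in 35.7% of all promoters. The ETS motif, CCGGAAGT, was in no member and in 3.89% of all promoters. This exact run has 8 letters where the other motifs have 6, and shorter or variant ETS sites were not searched. The GATA motif, AGATAA, was in no member and in 11.2% of all promoters. A match is a run of letters, not a bound site. The median GC content was 48.0% over the member promoters and 52.7% over all.

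The Gimap cluster shares its chromosome with the deleted gene. Ezh2 (chromosome 6, 47530139 to 47595341, GRCm38) lies with a gap of 1.05 Mb to Gimap8. Of 20 annotated genes between them that the files list, 13 were tested, and 0 were called higher and 5 lower in KO day 5 (Repin1, Pdia4, Krba1, Zfp777 and Zfp746). Over all tested genes, 16.5% were called higher and 22.9% lower at day 5, and 11.2% and 7.23% at day 3. At day 3, Pdia4, an endoplasmic reticulum protein-folding enzyme, was called higher and Krba1 lower. Krba1 averaged 0.42 CPM in KO day 5 and 2.65 CPM in WT day 5, reached 1 CPM in 0 of 6 KO libraries and passed the filter only through WT libraries, so nothing is read from its calls. Repin1, with a gap of 48.2 kb to Gimap8, averaged 3.17 ± 0.71 CPM in KO day 5 and 9.26 ± 1.98 CPM in WT day 5 (log2 difference −1.29 ± 0.30, limma adjusted p = 0.00153).

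On the other side, Tmem176b and Tmem176a, membrane proteins of an ion channel family, lie with gaps of 63.0 and 70.1 kb to Gimap3. Tmem176b had 49.2, 33.3 and 33.5 CPM in KO day 5, against 4.09, 3.34 and 7.91 CPM in WT day 5 (log2 difference 2.74 ± 0.32, limma adjusted p = 4.96e-07). At day 3 Tmem176b averaged 10.7 ± 1.97 CPM in KO and 2.65 ± 1.11 CPM in WT (1.72 ± 0.32, limma adjusted p = 0.000529). Its libraries did not overlap between genotypes at either day, while those of Gimap3, the nearest member, overlapped at day 3. Tmem176a averaged 38.7 ± 4.98 CPM in KO day 5 and 5.29 ± 2.87 CPM in WT day 5 (2.75 ± 0.35, limma adjusted p = 1.98e-06). Igf2bp3, an RNA-binding protein of fetal tissues 314 kb away, averaged 60.9 ± 6.11 CPM in KO day 5 and 21.4 ± 1.09 CPM in WT day 5 (1.46 ± 0.17, limma adjusted p = 5.90e-07). Its day 3 difference was larger, with 72.9 ± 1.09 CPM in KO and 13.3 ± 3.35 CPM in WT (2.40 ± 0.17, limma adjusted p = 1.15e-09). Within 500 kb of the outermost Gimap genes, 13 of 23 listed non-member genes were tested, Gm28053 among them, and 4 were called higher and 2 lower in KO day 5. At day 3, 3 were called higher and 1, Krba1, lower. The 2 lower at day 5 were Krba1 and Repin1, which are also counted above between Ezh2 and the cluster. Nothing is read from the calls of Krba1. The shares over all tested genes were 16.5% higher and 22.9% lower at day 5, and 11.2% and 7.23% at day 3.

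**Figure D3:**
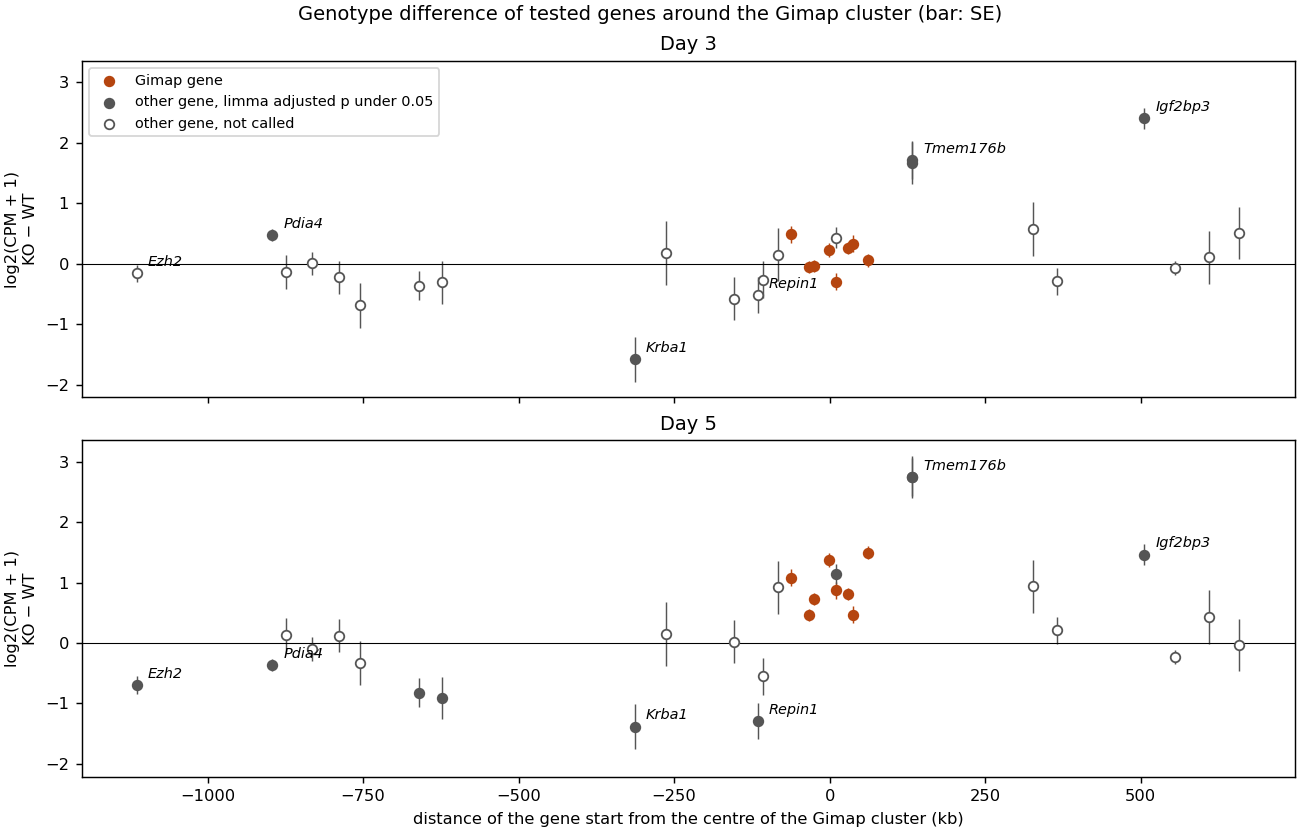
Difference in log2(CPM + 1), KO minus WT, with SE bars, of tested genes by the distance of their start from the centre of the Gimap cluster (kb), day 3 above and day 5 below. Red points are the Gimap genes, filled grey points are other genes with limma adjusted p under 0.05, and open points were not called. At day 5 the 8 Gimap points lie above 0, Tmem176b at 2.74 lies above them, and Krba1 and Repin1 lie below 0.

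Genes of the pathways that Gimap proteins act in were read from the same fit. For these and the lists that follow, 16.5% of all tested genes were called higher and 22.9% lower at day 5. At day 3 the shares were 11.2% and 7.23%. Of 17 partner and BCL2 family genes, all tested, 11 were called higher and 1 lower in KO day 5, and 6 higher and 1 lower in KO day 3. Their median log2 difference was 0.72 at day 5 and 0.28 at day 3. Bcl2l11, the gene of the death-promoting protein Bim, averaged 408 ± 25.9 CPM in KO day 5 and 89.7 ± 4.48 CPM in WT day 5 (log2 difference 2.17 ± 0.11, limma adjusted p = 2.84e-12). Bbc3, the gene of the death-promoting protein Puma, averaged 69.0 ± 13.9 CPM in KO day 5 and 15.8 ± 3.07 CPM in WT day 5 (2.06 ± 0.21, limma adjusted p = 8.48e-08). The survival gene Mcl1 averaged 299 ± 22.7 CPM in KO day 5 and 156 ± 3.27 CPM in WT day 5 (0.93 ± 0.09, limma adjusted p = 3.76e-08). Bcl2, the survival gene of the family, was lower in KO at both days. At day 5 Bcl2 averaged 795 ± 51.4 CPM in KO and 935 ± 19.7 CPM in WT (−0.24 ± 0.07, limma adjusted p = 0.0115). At day 3 Bcl2 averaged 802 ± 25.4 CPM in KO and 978 ± 62.0 CPM in WT (−0.28 ± 0.07, limma adjusted p = 0.00745). Of these survival genes, Mcl1 was thus higher and Bcl2 lower in KO day 5. Gabarap, of the autophagy protein family that Gimap6 binds, averaged 192 ± 16.3 CPM in KO day 5 and 79.2 ± 9.92 CPM in WT day 5 (1.27 ± 0.11, limma adjusted p = 1.13e-08). Gabarapl2 and Gsk3b, named here after their values were seen, were not called at day 5. Gabarapl2, the partner of Gimap6, averaged 83.4 ± 16.7 CPM in KO day 5 and 73.8 ± 6.01 CPM in WT day 5 (0.16 ± 0.14, limma adjusted p = 0.392). Gsk3b, the kinase that Gimap5 restrains, averaged 256 ± 25.6 CPM in KO day 5 and 236 ± 8.51 CPM in WT day 5 (0.12 ± 0.09, limma adjusted p = 0.314).

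Among 30 genes of naive and quiescent T cells, where Gimap transcripts are also found, 18 were called higher and 3 lower in KO day 5, with a median log2 difference of 0.70. At day 3, 5 were called higher and 10 lower, although the median was 0.20. Btg1, an inhibitor of proliferation, averaged 1194 ± 7.43 CPM in KO day 5 and 129.7 ± 10.3 CPM in WT day 5 (3.20 ± 0.10, limma adjusted p = 2.54e-15). Slfn2, which keeps T cells quiescent, averaged 392 ± 35.4 CPM in KO day 5 and 152 ± 12.3 CPM in WT day 5 (1.36 ± 0.11, limma adjusted p = 1.46e-09). The median of this list was 0.70 at day 5 and 0.20 at day 3, beside 0.84 and 0.14 for the Gimap members. The partner and BCL2 family list had 0.72 and 0.28. Genes of the naive list spread more widely, from −4.23 to 3.20 at day 5, where the members ran from 0.47 to 1.50. Dapl1 was lower at both days, at 2.32 ± 0.73 CPM in KO day 5 and 61.2 ± 13.6 CPM in WT day 5 (−4.23 ± 0.27, limma adjusted p = 1.01e-10).

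Other GTPase families and a list of transcription factors were read from the same fit. Beside them, 16.5% of all tested genes were called higher and 22.9% lower at day 5, and 11.2% and 7.23% at day 3. Of 19 tested interferon-inducible GTPases, 9 were called higher and 2 lower in KO day 5 (median 0.52) and 6 higher and 0 lower in KO day 3 (median 0.51). Mx1, an antiviral GTPase, averaged 46.4 ± 5.77 CPM in KO day 5 and 5.11 ± 1.94 CPM in WT day 5 (2.99 ± 0.29, limma adjusted p = 3.05e-08). Iigp1, of the immunity-related GTPases, averaged 70.3 ± 19.5 CPM in KO day 5 and 167 ± 27.8 CPM in WT day 5 (−1.26 ± 0.19, limma adjusted p = 1.20e-05). Of 9 tested septins, GTPases related to Gimap proteins in fold, 4 were called higher and 0 lower at each day (medians 0.18 at day 5 and 0.29 at day 3), and 2 at day 5 without WT day 5 replicate 3. Septin5, called at both days, reached 1 CPM in 6 KO libraries and in 1 WT library, so it passed the filter only through KO. The same held for Ly6c1 of the naive list and Mx2 of the interferon-inducible list at day 5, both named after their values were seen. Of 23 tested lymphocyte transcription factors, 5 were called higher and 3 lower at each day. With median-of-ratios scaling the day 5 count was 11 higher and 3 lower. At day 3, 5 of these factors were called in all without WT day 3 replicate 3 and 4 without KO day 3 replicate 2.

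**Figure D4:**
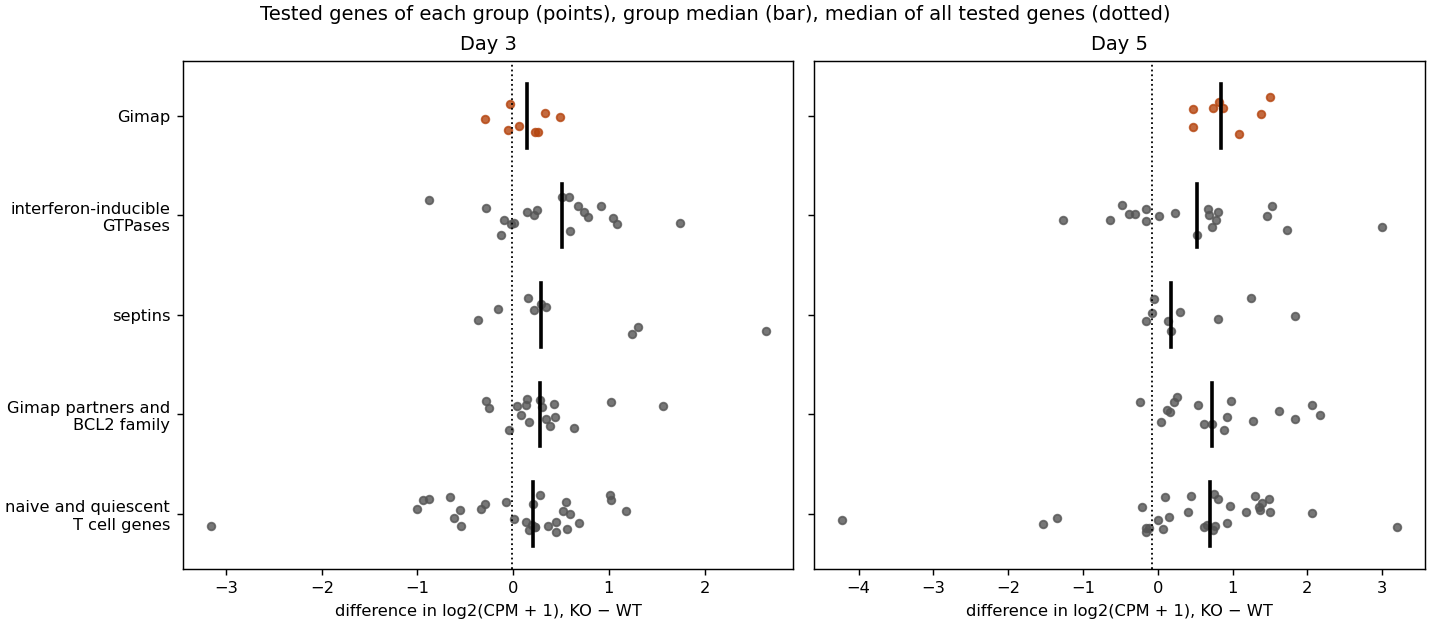
Difference in log2(CPM + 1), KO minus WT, of each tested gene (points) in the Gimap family and 4 other gene lists, with the list median (bar) and the median of all tested genes (dotted line), day 3 at left and day 5 at right. At day 5 the Gimap points lie between 0.47 and 1.50 with a median of 0.84, and every other list has points on both sides of 0.

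The genes whose log2(CPM + 1) followed the summed Gimap level most closely over the 12 libraries, among 7489 genes with a mean of at least 10 CPM, were Slfn2, Npc2, Fxyd5, Gm2a and Cd3g (Pearson r from 0.98 to 0.99). Those most opposed were Mcm5, Pcna and Srsf1 (r = −0.99 each). These are descriptions over libraries that form 4 groups and share day and genotype, and they carry no test. Npc2, a lysosomal cholesterol carrier, averaged 1009 CPM in KO day 5 and 411 CPM in WT day 5, and Gm2a, a lysosomal lipid activator, 313 CPM in KO day 5 and 142 CPM in WT day 5. Pcna, the DNA polymerase clamp, averaged 134 CPM in KO day 5 and 308 CPM in WT day 5. Mcm5, a replicative helicase subunit, averaged 64.8 CPM in KO day 5 and 167 CPM in WT day 5. Gimap6 was closest to Gm2a (r = 0.99), Gimap3 to Shisa5 (r = 0.99), Gimap4 to Lax1 (r = 0.98), Gimap9 to Lmbr1l (r = 0.98), Gimap8 to Kmt2c (r = 0.98) and Gimap1 to Pde2a (r = 0.98). Gimap5 and Gimap7 had looser neighbours, Rap2a (r = 0.93) and Jund (r = 0.93).

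Marker sums of other cell types were set beside the Gimap result at day 5. The 9 CD8 T cell markers summed to 3039 to 3540 CPM in KO day 5 and 2444 to 2479 CPM in WT day 5, with 5 called higher and 0 lower, Cd3g, Cd3d, Cd3e and Cd247 first. At day 3 they summed to 1866 to 2156 CPM in KO and 2381 to 2485 CPM in WT, with 3 called lower (Cd2, Cd8b1 and Cd8a). The list holds Cd8a and Cd8b1 beside genes of T cells in general, such as Cd3e, so the sum does not stand for CD8 genes alone. The 7 NK cell markers summed to 12.6 to 17.5 CPM in KO day 5 and 1.70 to 2.79 CPM in WT day 5. Of them 2 were tested, Klrb1c was called higher, and Ncr1, Klra8, Klra4 and Klrb1b had no read in any library. The 15 myeloid and dendritic markers summed to 121 to 149 CPM in KO day 5 and 76.5 to 86.9 CPM in WT day 5. Of them 5 were tested and 4 called higher (Itgam, Cst3, Cd68 and Itgax), while Fcgr1, Siglech, S100a9 and Mpo had no read. Itgam, Itgax and Klrb1c were near 0 in WT day 5 and passed the filter only through KO libraries. The part of these markers in the Gimap result was not tested.

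The 10 B cell markers, of a lineage that also uses Gimap genes, summed to 3.24 to 8.84 CPM in KO day 5 and 2.83 to 9.48 CPM in WT day 5, with 0 of 4 tested called. The 5 CD4 T cell markers summed to 18.3 to 37.5 CPM in KO day 5 and 20.1 to 33.9 CPM in WT day 5, with Cd40lg called lower, a call lost without WT day 5 replicate 3. Cd40lg passed the filter only through WT libraries. At day 3, 1 of 4 tested CD4 T cell markers, Foxp3, was called lower in KO, a call not made without WT day 3 replicate 1, KO day 3 replicate 1 or KO day 3 replicate 2. Foxp3 reached 1 CPM in 2 KO libraries and 5 WT libraries, so it passed the filter only through WT and nothing is read from its call. The 8 erythroid and platelet markers summed to 18.8 to 39.2 CPM in KO day 5 and 10.2 to 20.4 CPM in WT day 5, with Hba-a1 called higher, and not without KO day 5 replicate 2; reads of Hba-a1 and its near copy Hba-a2 may be divided in an unknown way. The 12 endothelial and stromal markers summed to 33.9 to 53.7 CPM in KO day 5 and 42.9 to 59.1 CPM in WT day 5, with Egfl7 called lower. Between the genotypes at day 5, the CD8 T cell, NK cell and myeloid sums did not overlap, and the B cell, CD4 T cell, erythroid and endothelial sums overlapped. Most of the myeloid sum was Cst3, on average 115 of 138 CPM in KO day 5 and 77.4 of 81.8 CPM in WT day 5. Most of the NK cell sum in KO day 5 was Klrb1c, on average 13.3 of 14.8 CPM. These sums therefore do not describe the NK cell or myeloid lists as a whole.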

How the data were processed

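The authors deposited 1 table per library whose values they name TPM. In every column the total was 1000000, and 100% of values lay on whole multiples of 1 step (tolerance 0.001 read), so the deposited values were treated as CPM (each gene's reads scaled to a library total of 1000000), and whole read counts were recovered from the steps. The columns of other samples numbered 0. Builds named without a role, per the submitters' processing notes, are GRCm39 and mm10. The aligner, the counting tool and the use of strand were not given in the sources used here.

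Genes reaching 1 CPM or more in 3 or more libraries were fitted on log2(CPM + 1), computed here from the deposited CPM, with limma 3.58.1 in R 4.3.3. The fit had 1 mean per group over 12 libraries, moderation with a trend and 21.1 degrees of freedom. Tests were two-sided, adjusted by Benjamini-Hochberg over 11417 genes, with a threshold of 0.05, and the step was tested on simulated data. The log2 scale with the added 1 understates the change of low genes. The members and lists were chosen with earlier results of these data known. Genes named besides the 8 members were Ezh2, for each list the 4 called genes of smallest adjusted p per genotype comparison, and the 5 most and 3 least correlated with a member or the sum; the text leaves out some. Named outside this rule, after their values were seen, were Gabarapl2, Gsk3b, Zfp746, Ly6c1, Mx2, Bcl2 and Cd8a at day 5, Hba-a2 beside its near copy, and markers with no read. Alternatives were other pseudocounts, filters and scalings, a robust prior, moderation without trend, the replicate number as a block, only the libraries compared, edgeR 4.0.16 and DESeq2 1.42.0 on recovered reads, and leaving out each library. Of 25655 identifiers, 25600 were found in GENCODE M21 (GRCm38), the source of coordinates. Promoters are from RefSeq (GRCm38.p6). 1 further gene list and the values of 1 marker are not reported here.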

Additional observations from a re-analysis of the deposited data

Results flagged for a closer look

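The test of the genotype by day interaction called 6 members higher and 2 genes of the region lower. Over all tested genes, 4.01% were called higher and 8.85% lower. The 2 region genes were 1 of 13 tested between Ezh2 and the cluster and 1 of 13 tested within 500 kb of it. That is near the share over all genes, so nothing is read from this count. The interaction, KO minus WT at day 5 less KO minus WT at day 3 on log2(CPM + 1), was 1.44 for Gimap3, 1.17 for Gimap7, 1.15 for Gimap6, 0.77 for Gimap4, 0.56 for Gimap1 and 0.52 for Gimap9. Gimap8, at 0.60, was not called. The members were chosen with these values known, so they carry no p-value and nothing is read from the calls. Pdia4, between Ezh2 and the cluster, had a log2 difference of −0.37 at day 5 and 0.47 at day 3, an interaction of −0.84 ± 0.13 (limma adjusted p = 0.000195). Igf2bp3, beyond Gimap3, was higher in KO at both days, with log2 differences of 1.46 at day 5 and 2.40 at day 3, an interaction of −0.94 ± 0.24 (limma adjusted p = 0.0122).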

How the results depend on the processing

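The 8 members were called higher in KO day 5 under all 26 alternatives run, and no called value changed sign. In KO day 3, 0 members were called without trend or with DESeq2, 2 with Gm28053 added to Gimap5 and 2 with it added to Gimap1, and 0 to 2 leaving out 1 library. In WT day 5 against WT day 3, 1 member was called without trend and 1 with DESeq2, and 1 to 3 leaving out 1 library. Over all genes that comparison gave 773 calls without trend and 818 to 1760 leaving out 1 library, in place of 1249, and the interaction gave 884 without trend, in place of 1468, and 1108 to 1763 leaving out 1 library. The interaction was called for 4 to 7 members. The upper ends over all genes, 1760 and 1763, came from leaving out KO day 5 replicate 2. The cause of these changes was not tested. Same-numbered libraries did not deviate together (correlations from −0.014 to 0.039), so no sign of pairing by number was seen. With so few libraries this does not show that the samples are unpaired. With the replicate number as a block, 8 members were called at day 5 and 1 at day 3, and all genes gave 4487 and 2072 calls, in place of 4501 and 2100. Each member had 55 to 1080 reads in a library, and the smallest difference that this depth and spread can show was not measured.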
